A study of Mus musculus with 24 samples.

Results

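The 10 heterogeneous nuclear ribonucleoprotein (hnRNP) genes described here are Hnrnpa1, Hnrnpa2b1, Hnrnpc, Hnrnpd, Hnrnpf, Hnrnph1, Hnrnpk, Hnrnpl, Hnrnpm and Hnrnpu. They were taken by symbol from the 22667 genes of the expression table, together with their 32 exon events (of 54141, microexons included) and 68 intron events (of 160806) in the splicing table. All 10 genes had counts and passed the filter on low counts. Poly(A)+ RNA had been sequenced from mouse embryonic stem cells (ESCs) kept in 2i medium, from day 7 neural progenitor cells (NPCs), from bead-purified PSA-NCAM+ cells at day 10, and from neurons replated at day 7 and grown for 14 more days. Each stage was sampled with 3 replicates of wild-type (WT) and 3 of slow/slow cells, 24 samples in all. The slow/slow cells carry the R749H substitution in both alleles of Polr2a, which encodes the largest RNA polymerase II subunit, and were made by targeting both alleles of E14 ESCs in succession, so that the substitution and any other difference between these 2 lines cannot be told apart. For NPCs and PSA-NCAM+ cells, WT cells were plated at 10000 and slow/slow cells at 30000 per cm2, so genotype and plating density cannot be told apart there. For the cultures that were replated as neurons at day 7 the labels give no density, so the same may hold for neurons.

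hnRNPs are abundant nuclear proteins that coat nascent RNA and guide its splicing, export and stability. Many of them repress or promote exons by binding near splice sites, and several control the splicing of their own transcripts, including through versions that are degraded by nonsense-mediated decay. Pre-mRNA is spliced largely while RNA polymerase II is still moving along the gene, so that the speed of the polymerase sets how long competing splice sites and binding sites are exposed to such factors.

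Exons and introns whose inclusion is described below are shown first, since they are what the splicing results turn on. They were read from GENCODE M21 transcripts (GRCm38). Capitals mark the GT and AG ends of the introns. The 57-nt Hnrnpd exon lies at chr5:99976534-99976590 and the 147-nt Hnrnpd exon at chr5:99963731-99963877, both on the minus strand. They are the 2 coding exons whose use separates the protein isoforms of Hnrnpd, also called AUF1; the shorter exon is 5′ UTR in 2 other annotated transcripts, and the longer one is 3′ UTR in 1 transcript marked for nonsense-mediated decay. The 120-nt Hnrnpa2b1 exon lies at chr6:51464428-51464547 on the minus strand and is coding. The 111-nt Hnrnpl intron lies at chr7:28818533-28818643 on the plus strand, between coding exons, and is kept in 1 coding transcript. The 117-nt Hnrnpm intron lies at chr17:33666530-33666646 on the minus strand, and 2 coding transcripts keep it inside an exon.
Hnrnpd 57-nt exon: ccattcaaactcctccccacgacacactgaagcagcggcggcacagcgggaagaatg
Hnrnpd 147-nt exon: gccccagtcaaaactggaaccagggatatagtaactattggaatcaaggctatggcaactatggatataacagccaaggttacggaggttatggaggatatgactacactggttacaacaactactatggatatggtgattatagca
Hnrnpa2b1 120-nt exon: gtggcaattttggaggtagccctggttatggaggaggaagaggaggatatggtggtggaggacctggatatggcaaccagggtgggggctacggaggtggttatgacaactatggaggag
Hnrnpl 111-nt intron: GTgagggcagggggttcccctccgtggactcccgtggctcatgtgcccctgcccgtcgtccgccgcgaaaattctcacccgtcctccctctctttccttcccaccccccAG
Hnrnpm 117-nt intron: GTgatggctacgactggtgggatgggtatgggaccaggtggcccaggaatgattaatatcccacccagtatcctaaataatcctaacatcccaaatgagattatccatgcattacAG
The GC content was 59.6% in the 57-nt exon, 41.5% in the 147-nt exon, 55.0% in the 120-nt exon, 67.6% in the Hnrnpl intron and 46.2% in the Hnrnpm intron. All 5 lengths are multiples of 3. The sixth event, a 73-nt Hnrnpa2b1 exon, is listed at mm9 chr6:51411982-51412054 with a second 5′ splice site; its 136-nt version is annotated in the 3′ UTR of 1 coding transcript and of 2 transcripts marked for nonsense-mediated decay, and its sequence is not shown.

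Expression is given as CPM, the count scaled to a common library size after TMM normalization, and tested with edgeR's quasi-likelihood test over 16627 genes, with a gene called at a Benjamini-Hochberg FDR under 0.05. The 24 libraries held between 32974432 and 104466886 counts. Each of the 10 genes had between 8563 and 186296 counts in every sample, so counting error was small. Outside the PSA-NCAM+ groups the coefficient of variation of a member within a group was at most 9.77%. In the PSA-NCAM+ groups it reached 35.9%. There, the replicates numbered 1 of both genotypes stood apart: the SD of their log2 difference from the other replicates was 0.70 to 1.01, against 0.28 to 0.43 for all other replicate pairs. The labelled stages were checked against markers. The neuron stage stood apart: 5 neuronal markers, Rbfox3 among them, summed to 2235 to 2580 CPM there and to at most 254 in any earlier sample, and 6 pluripotency markers summed to 5336 to 6121 CPM in ESCs and to at most 265 in neurons. The stages between were not in order by neuronal markers in WT cells, which summed to 45.4 to 57.7 CPM in ESCs, 27.9 to 28.2 in NPCs and 23.0 to 36.0 in PSA-NCAM+ cells. In WT NPCs Rbfox3, Snap25 and Dcx were under 1 CPM, in WT PSA-NCAM+ cells Rbfox3 and Snap25 were, and the pluripotency markers still summed to at least 2124 CPM in the first and 1417 in the second. All 6 pluripotency markers, Sox2 among them, were nevertheless called lower than in WT ESCs in both (median log2 change -1.45 and -1.85). Pax6 and Nes, 2 neural progenitor markers, summed to 18.2 to 19.5 CPM in WT ESCs and 36.9 to 38.3 in WT NPCs. Both were called higher in WT NPCs than in WT ESCs. The sums were 30.4 to 33.1 CPM in slow/slow ESCs, 66.8 to 99.0 in WT PSA-NCAM+ cells and 247 to 296 in WT neurons. The 6 endoderm and mesenchyme markers had a median sum of 15.7 CPM in WT ESCs and 154 in WT NPCs. The label of WT NPCs was kept as given, and these sums do not establish it.

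The 10 genes together made up 0.666% ± 0.045 of all counts in WT ESCs (SD, n = 3) and 0.766% ± 0.027 in slow/slow ESCs. The share was 0.524% ± 0.016 in WT and 0.794% ± 0.027 in slow/slow NPCs. Among PSA-NCAM+ cells it was 0.600% ± 0.084 in WT and 0.826% ± 0.15 in slow/slow samples. WT neurons had 0.480% ± 0.024 and slow/slow neurons 0.702% ± 0.0090. The slow/slow mean was thus the higher one at each stage.

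Per transcript length, by the authors' mean RPKM, Hnrnpa1 was the most and Hnrnpd the least abundant member in all 8 groups. Hnrnpa1, which binds exonic and intronic silencers, stood at 840 RPKM in WT ESCs, and Hnrnpd, which also binds AU-rich elements in mRNA tails, at 88.8. Hnrnpf was second to Hnrnpa1 in the 6 groups before the neuron stage. In neurons of both genotypes Hnrnpk and Hnrnpa2b1 also stood above it, and in slow/slow neurons Hnrnph1 did too. These RPKM values are group means without a spread, so neighbours in the order cannot be separated.

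**Figure D1:**
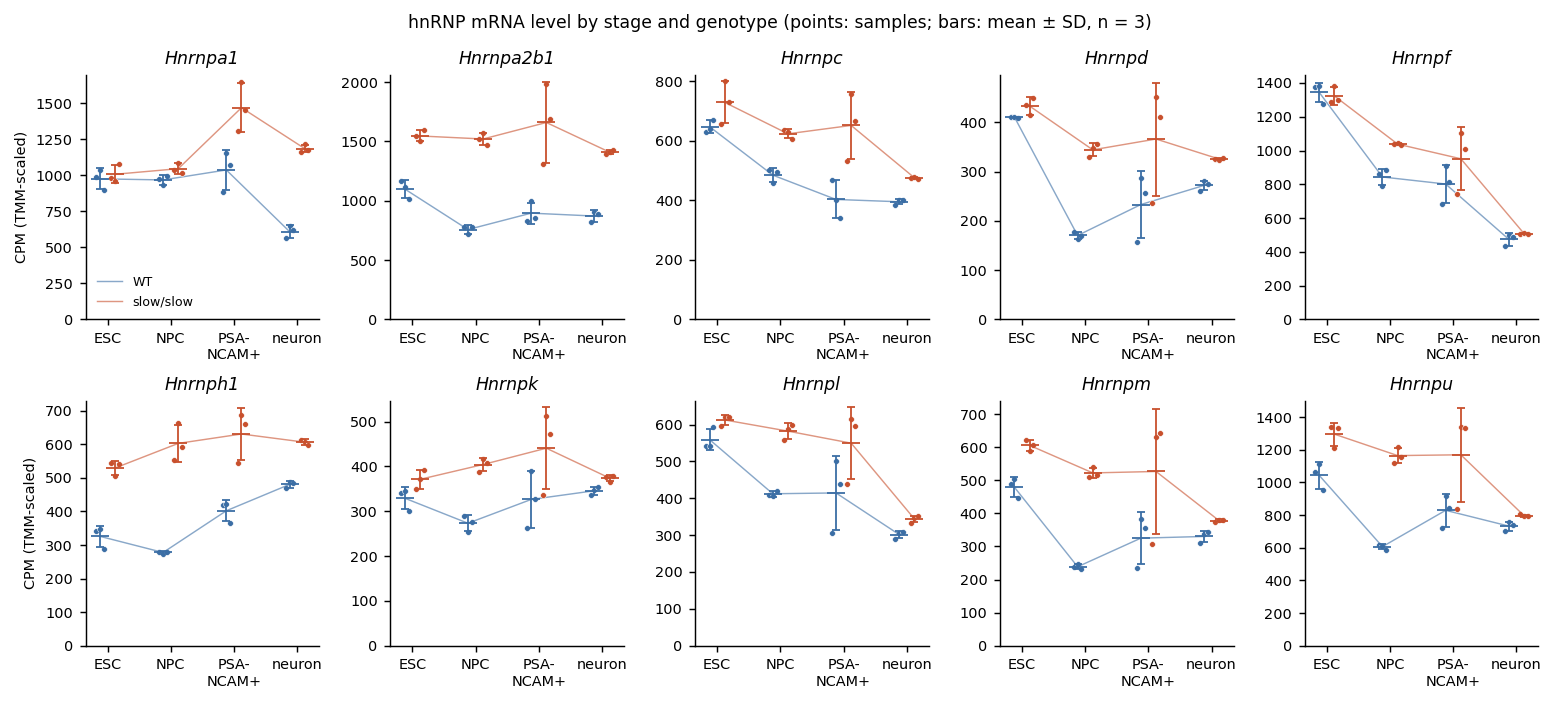
CPM of each hnRNP gene (vertical axis, from 0) by stage (horizontal axis) in WT (blue) and slow/slow (red) cells. Points are samples, bars the mean ± SD of 3 replicates, and lines join the means. In NPCs and in neurons the 3 slow/slow points lie above the 3 WT points for all 10 genes, and the widest spread is in PSA-NCAM+ cells. Of all genes, 37.8% in NPCs and 33.5% in neurons had slow/slow values wholly above WT values.

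The first question was whether hnRNP mRNA levels differ between genotypes at a given stage. In ESCs, 2 of the 10 genes were higher in slow/slow cells and none was lower, where 18.5% of all genes tested were called higher and 21.9% lower. The median log2 change over the 10 genes was 0.17, against -0.02 over all genes. The 2 genes were Hnrnph1, which binds runs of guanines, and Hnrnpa2b1, a close relative of Hnrnpa1 known for mRNA transport and splicing repression.

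Hnrnph1 stood at 342, 347 and 289 CPM in the 3 WT ESC samples and at 543, 505 and 541 in the slow/slow ones. The groups did not overlap, and the log2 change was 0.70 ± 0.09 (SE; edgeR FDR 3.31e-06). Hnrnpa2b1 stood at 1169.7, 1114 and 1014 CPM in WT and at 1545, 1501 and 1594 in slow/slow ESCs. Every slow/slow value was again above every WT value, with a log2 change of 0.49 ± 0.11 (edgeR FDR 0.00103). Of the other 8 genes, Hnrnpu, a nuclear scaffold protein, came nearest to the threshold (log2 change 0.31 ± 0.13, edgeR FDR 0.0517). In all, 7 of the 10 genes had slow/slow ESC values wholly above the WT values, where 27.9% of all genes did. With only the ESC samples in the model, 7 genes were called higher, as were 27.3% of all genes. Markers also differed. Both neural progenitor markers were higher in slow/slow ESCs, though Pax6 was under 1 CPM in WT. Of 5 neuronal markers 2 were higher and none lower, with a sum of 123 to 152 CPM against 45.4 to 57.7 in WT. Of 6 pluripotency markers 1 was higher and 2 lower. Of 12 cell division genes 1 was higher. No glial marker was called, and of 6 endoderm and mesenchyme markers 1 was higher and 1 lower. The part of these differences in the hnRNP levels was not tested.

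In NPCs, 9 of the 10 genes were higher in slow/slow cells and none was lower, against 29.3% of all genes called higher and 27.4% called lower. The median log2 change of the 10 genes was 0.75, and over all genes it was 0.01. Changes of about 2-fold were found for Hnrnpm, Hnrnph1, Hnrnpd, Hnrnpa2b1 and Hnrnpu. For all 10 genes the slow/slow values lay above the WT values, which held for 37.8% of all genes.

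Hnrnpm, a splicing regulator that binds GU-rich RNA, stood at 238, 247 and 231 CPM in WT NPCs and at 509.7, 539.8 and 517 in slow/slow NPCs. That was 2.19-fold (log2 change 1.13 ± 0.19, edgeR FDR 4.77e-05). Hnrnph1 stood at 280.5, 274 and 279 CPM in WT and at 554, 662 and 592 in slow/slow NPCs, 2.17-fold (log2 change 1.12 ± 0.09, edgeR FDR 5.5e-09). The slow/slow values of both genes were well clear of the WT range.

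Hnrnpd stood at 178, 164 and 169 CPM in WT NPCs and at 329, 348 and 355 in slow/slow NPCs (2.02-fold, log2 change 1.01 ± 0.18, edgeR FDR 9.82e-05). Hnrnpa2b1 stood at 775, 717 and 779.5 CPM in WT and at 1518, 1573 and 1473 in slow/slow NPCs (2.01-fold, edgeR FDR 2.55e-07). Hnrnpu stood at 619, 612 and 589 CPM in WT and at 1119.9, 1215 and 1158 in slow/slow NPCs (1.92-fold, edgeR FDR 3.86e-06). For these 3 genes too, the lowest slow/slow sample exceeded the highest WT sample by far more than either group's spread.

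The other genes called in NPCs changed less. Hnrnpk, which binds C-rich RNA and DNA, had a log2 change of 0.57 ± 0.13, and Hnrnpl, which binds CA-rich RNA, one of 0.50 ± 0.13. Hnrnpc, which binds uridine tracts, had one of 0.36 ± 0.11, and Hnrnpf, a relative of Hnrnph1, one of 0.30 ± 0.11 (edgeR FDR 0.0288). Hnrnpa1 was not called, at 967 ± 32 CPM in WT and 1045 ± 38.1 in slow/slow NPCs. The call of Hnrnpf was lost under upper-quartile scaling (log2 change 0.26, edgeR FDR 0.0603) and when any NPC library but WT replicate 3 was left out (0.25 to 0.31).

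Other groups of genes also differed between WT and slow/slow NPCs. Of 6 pluripotency markers, 4 were lower and none was higher in slow/slow NPCs, and their summed level was 1318 to 1448 CPM against 2124 to 2211 in WT. Both neural progenitor markers measured, Pax6 and Nes, were higher (119.99 to 157 against 36.9 to 38.3 CPM in sum), and 4 of 5 neuronal markers were higher. Of 12 cell division genes, 3 were higher and 1 was lower, with a median log2 change of 0.22. Of 6 glial markers 2 were higher and 3 lower, with a sum of 8.33 to 9.56 CPM against 14.2 to 14.9 in WT. Of 6 endoderm and mesenchyme markers 1 was lower and none higher, with a sum of 113 to 142 CPM against 135 to 156. Whether cell makeup had a part in the hnRNP differences was not tested, and in bulk samples fewer cells of a type and less RNA per cell cannot be told apart. Polr2a itself was not called before the neuron stage, with log2 changes of -0.02 (ESCs), 0.29 (NPCs) and 0.05 (PSA-NCAM+), and was lower in slow/slow neurons (-0.94).

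**Figure D2:**
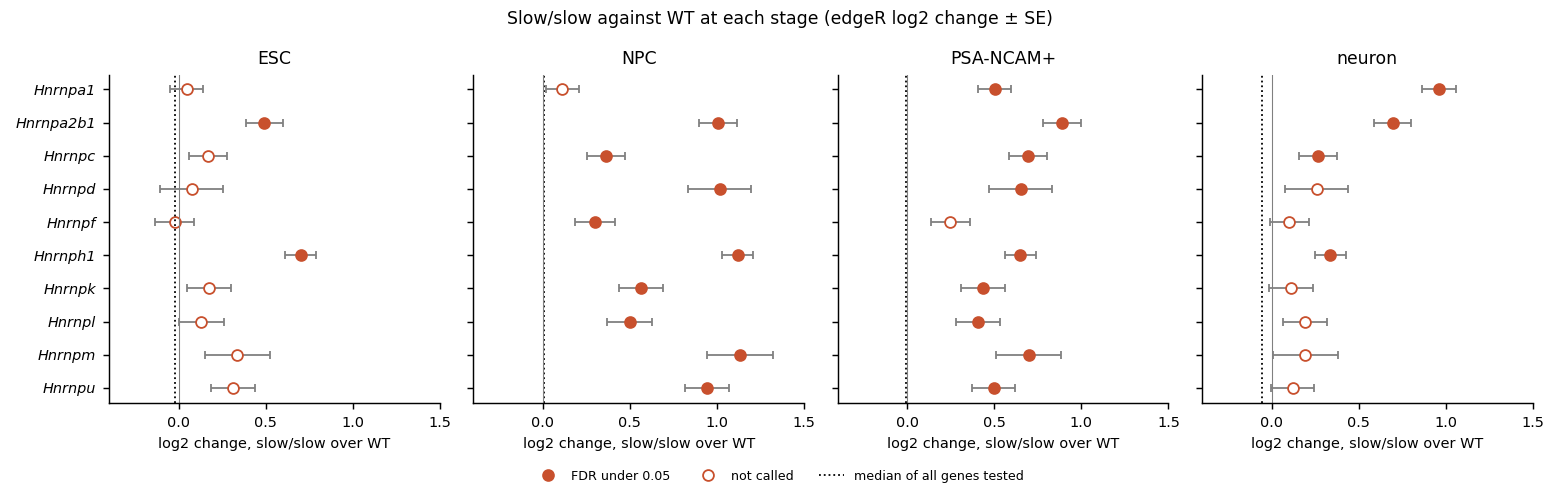
Log2 change of slow/slow over WT cells (horizontal axis) for each hnRNP gene (vertical axis) at the 4 stages, with bars for the standard error of the edgeR fit. Filled points passed an FDR of 0.05: 2 genes at the ESC stage, 9 each at the NPC and PSA-NCAM+ stages and 4 at the neuron stage, all to the right of 0, while the dotted median of all genes tested stays near 0. Of all genes, 18.5%, 29.3%, 28.6% and 23.4% were called higher at the 4 stages in this order.

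In PSA-NCAM+ cells, 9 of the 10 genes were higher in slow/slow cells and none was lower, against 28.6% of all genes called higher and 28.1% called lower. The median log2 change was 0.58 over the 10 genes and -0.01 over all genes. Hnrnpa2b1 stood at 831, 998 and 859 CPM in WT and at 1307, 1986 and 1687 in slow/slow samples (1.85-fold, edgeR FDR 9.72e-07). Hnrnpc stood at 467, 402 and 339 CPM in WT and at 533, 756 and 665 in slow/slow samples (1.62-fold, edgeR FDR 2.23e-05). These groups did not overlap. Slow/slow values lay wholly above WT values for only 4 of the 10 genes, where 21.1% of all genes did. Hnrnpf was the gene not called (log2 change 0.25 ± 0.11, edgeR FDR 0.0679).

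The samples of a replicate number deviated together at this stage. The replicates numbered 1, which stood apart in both genotypes, enter all of these deviations through the group means. With the replicate number as a block, all 10 genes were called higher, where 30.8% of all genes were, and Hnrnpf was among them (log2 change 0.24, edgeR FDR 0.00768). Without both replicates numbered 1, all 10 were also called (34.2% of all genes higher), with log2 changes of 0.98 for Hnrnpa2b1, 0.94 for Hnrnpc and 0.29 for Hnrnpf. With only the PSA-NCAM+ samples in the model and no block, 3 genes were called, against 11.0% of all genes. Markers also differed here. Slow/slow samples had lower pluripotency marker sums (870.5 to 939.8 CPM against 1417 to 1938 in WT) and higher sums of the 2 neural progenitor markers (251 to 320.2 CPM against 66.8 to 99.0) and the 5 neuronal markers (54.9 to 254 CPM against 23.0 to 36.0). Of 12 cell division genes, 5 were higher and none was lower: Mcm2, Mcm4, Mcm5, Mcm6 and Pcna. Of 6 glial markers 2 were higher and none lower, with a sum of 9.79 to 20.0 CPM against 10.4 to 16.1 in WT. Of 6 endoderm and mesenchyme markers 1 was higher and 1 lower, with a sum of 199 to 742 CPM against 230 to 575. The part of these differences in the hnRNP levels was not tested.

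In neurons, 4 of the 10 genes were higher in slow/slow cells and none was lower, while 23.4% of all genes were called higher and 28.4% lower. The median log2 change was 0.23 over the 10 genes and -0.06 over all genes. Values of slow/slow neurons lay wholly above those of WT neurons for all 10 genes, which held for 33.5% of all genes. With only the neuron samples in the model, all 10 were called higher, where the share of all genes called higher was 36.1%.

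Hnrnpa1 had the largest difference of the 10 genes in neurons. It stood at 563, 646 and 618 CPM in WT neurons and at 1165, 1213 and 1177 in slow/slow neurons. That was 1.94-fold (log2 change 0.96 ± 0.10, edgeR FDR 9.62e-08), with no overlap. In ESCs, by contrast, its values overlapped, at 989.8, 1039.7 and 895 CPM in WT and 978, 962 and 1079 in slow/slow samples. Hnrnpa1 lies on chromosome 15, and the median log2 change of that chromosome's 580 genes tested was -0.60 at the ESC stage, -0.58 in NPCs and -0.59 among PSA-NCAM+ cells but -0.07 in neurons. The medians of the 8 other chromosomes that hold members lay between -0.14 and 0.16 at every stage. The part of this shift in the Hnrnpa1 values was not tested. Of the 50-base stretches of Hnrnpa1 transcripts, 46.7% also occur in other annotated genes, mostly its processed copies, so its counts are uncertain.

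Hnrnpa2b1 stood at 818, 906 and 890.0 CPM in WT neurons and at 1392, 1409.8 and 1429 in slow/slow neurons (1.62-fold, edgeR FDR 2.07e-05). Hnrnph1 stood at 468, 487 and 486 CPM in WT and at 614, 608 and 597 in slow/slow neurons (1.26-fold, edgeR FDR 0.00348). Both genes were therefore called higher at every stage, alone among the 10. Hnrnpc was close to the threshold (log2 change 0.27 ± 0.11, edgeR FDR 0.0451), and its call was lost whichever neuron replicate was left out, with an FDR of 0.0648 to 0.109. In neurons, 6 of 12 cell division genes were also higher in slow/slow cells and none was lower. The 2 neural progenitor markers were both higher, with a sum of 415 to 470.2 CPM against 247 to 296 in WT neurons, and of 5 neuronal markers 3 were lower and none higher, with a sum of 2235 to 2391 CPM against 2396 to 2580. Of 6 glial markers 2 were higher and 3 lower, with a sum of 16.7 to 19.9 CPM against 66.6 to 87.3 in WT. Of 6 endoderm and mesenchyme markers 5 were higher and 1 lower, with a sum of 539.6 to 569 CPM against 251 to 313. The part of these differences in the hnRNP levels was not tested.

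Whether the genotype difference itself changed between stages was tested with an interaction term. Between NPCs and ESCs it was larger in NPCs for 5 of the 10 genes and smaller for none, against 13.6% of all genes in the first and 11.0% in the second direction. These were Hnrnpd (0.94 ± 0.25 on the log2 scale, edgeR FDR 0.0106), Hnrnpm (0.79 ± 0.26, FDR 0.034), Hnrnpu (0.63 ± 0.18, FDR 0.0134), Hnrnpa2b1 (0.51 ± 0.15, FDR 0.0176) and Hnrnph1 (0.42 ± 0.13, FDR 0.0194). The call of Hnrnpm was lost when any 1 of 11 libraries was left out, with an FDR of up to 0.0701, and that of Hnrnph1 without WT ESC replicate 1 or 2 or slow/slow NPC replicate 2. Without any 1 of these 3 libraries, 3 genes were called, where 11.3 to 11.8% of all genes were larger. Between neurons and ESCs the difference was larger in neurons for Hnrnpa1 (0.91 ± 0.14, FDR 2.01e-05) and smaller for Hnrnph1 (-0.36 ± 0.13, FDR 0.0242), where 20.5% of all genes were larger and 21.6% smaller. The Hnrnph1 call was lost under upper-quartile scaling (-0.20, FDR 0.225), which moved the median of all genes in this contrast by 0.16, and without WT ESC replicate 3 (-0.29), slow/slow ESC replicate 1 (-0.35), WT neuron replicate 2 (-0.34) or slow/slow neuron replicate 3 (-0.35).

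The second question was how the 10 genes change along differentiation within each genotype. The comparisons of a genotype share its ESC samples, and each is given by its own values. In WT cells, 8 of the 10 genes were lower in NPCs than in ESCs and none was higher, where 34.0% of all genes were called higher and 31.6% lower. In slow/slow cells, only Hnrnpf was lower and none was higher, where 33.9% of all genes were called higher and 28.4% lower. The median log2 change of the 10 genes was -0.49 in WT and -0.11 in slow/slow cells.

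In WT cells, Hnrnpd fell from 411, 412 and 409.8 CPM in ESCs to 178, 164 and 169 in NPCs (log2 change -1.27 ± 0.18, edgeR FDR 4.54e-06). In slow/slow cells the same gene stood at 435, 415 and 449.7 CPM in ESCs and at 329, 348 and 355 in NPCs (log2 change -0.33 ± 0.18, edgeR FDR 0.117). Hnrnpm fell from 488, 503 and 445 CPM in WT ESCs to 238, 247 and 231 in WT NPCs (log2 change -1.01 ± 0.19, edgeR FDR 0.000102). Its values were 622, 589 and 606 CPM in slow/slow ESCs and 509.7, 539.8 and 517 in slow/slow NPCs (log2 change -0.21 ± 0.19, edgeR FDR 0.332). The difference between the genotypes in these steps is the interaction between NPCs and ESCs given above. With only the ESC and NPC samples of slow/slow cells in the model, 6 genes were called, 5 lower and 1 higher (35.1% and 38.1% of all genes), and 2 were called without slow/slow ESC replicate 1 (Hnrnpc, -0.29) or slow/slow NPC replicate 1 (Hnrnph1, 0.24).

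**Figure D3:**
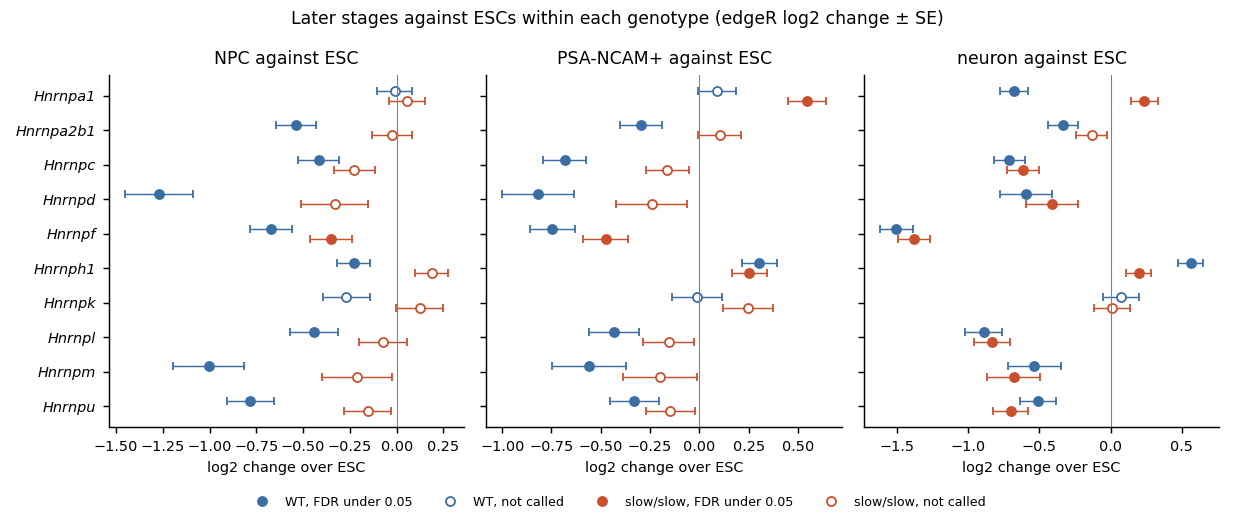
Log2 change over ESCs (horizontal axis) of each hnRNP gene (vertical axis) in NPCs, PSA-NCAM+ cells and neurons, for WT (blue) and slow/slow (red) cells, with standard errors. Filled points passed an FDR of 0.05: 8 genes for WT and 1 for slow/slow NPCs, 8 and 3 for PSA-NCAM+ cells, 9 and 8 for neurons. Of these, 8, 7 and 8 were lower in WT and 1, 1 and 6 in slow/slow cells. Of all genes, 28.4 to 39.4% were called lower and 33.9 to 44.0% higher in these comparisons.

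In WT PSA-NCAM+ cells, 7 genes were lower than in ESCs and 1, Hnrnph1, was higher, where 37.6% of all genes were called higher and 33.6% lower. Without WT PSA-NCAM+ replicate 1, 5 genes were called, 4 lower and 1 higher (33.7% and 35.6% of all genes). In slow/slow PSA-NCAM+ cells, Hnrnpa1 (log2 change 0.54 ± 0.10) and Hnrnph1 (0.25 ± 0.09) were higher and Hnrnpf (-0.48 ± 0.11) was lower, where 39.2% of all genes were called higher and 34.2% lower. Without slow/slow PSA-NCAM+ replicate 1, 5 genes were called, 4 higher and 1 lower (38.5% and 35.2% of all genes).

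In neurons, 8 genes were lower than in ESCs and 1 was higher in WT cells, where 43.4% of all genes were called higher and 39.4% lower. In slow/slow cells 6 were lower and 2 higher, where 44.0% of all genes were called higher and 38.4% lower. Hnrnpf fell furthest of the 10 genes in both. It went from 1375, 1379 and 1277 CPM to 432, 502 and 488 in WT cells (log2 change -1.50 ± 0.11, edgeR FDR 1.34e-10). In slow/slow cells it went from 1285, 1383 and 1300.1 CPM to 508, 512 and 505 (log2 change -1.38 ± 0.11, edgeR FDR 5.76e-10). Hnrnpl was next, with log2 changes of -0.89 in WT and -0.83 in slow/slow cells.

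Hnrnpa1 fell in WT neurons (log2 change -0.68 ± 0.10, edgeR FDR 1.58e-06) and was higher in slow/slow neurons than in slow/slow ESCs (0.24 ± 0.10, edgeR FDR 0.0286). It lies on chromosome 15, whose median genotype difference was -0.60 in ESCs and -0.07 in neurons. The part of this shift in the Hnrnpa1 changes was not tested. Hnrnph1 was higher in neurons of both genotypes, by 0.56 ± 0.09 in WT and 0.20 ± 0.09 in slow/slow cells. Hnrnpk had log2 changes of 0.07 ± 0.13 in WT and 0.01 ± 0.13 in slow/slow cells, neither called. In slow/slow cells, the calls of Hnrnpa1, Hnrnph1 and Hnrnpd were near the threshold. Both higher calls were lost under upper-quartile scaling (0.20 and 0.16), and 5 genes were called, all lower, when slow/slow ESC replicate 1 or 2 or any slow/slow neuron replicate was left out.

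The 10 genes did not follow a single profile. Over the 8 group means of log2 CPM, the Pearson r of a member with the mean of the other 9 ran from 0.50 for Hnrnpa1, 0.52 for Hnrnph1 and 0.54 for Hnrnpf to 0.94 for Hnrnpm and 0.95 for Hnrnpu. Among all other genes, those most like the members' mean profile by the same measure were Srsf1 (0.971), an SR splicing factor, Tmpo (0.97), Smarca5 (0.968), Ints7 (0.966) and E2f3 (0.963). The 8 points share the libraries and their scaling, so these values are descriptions.

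A further 21 of 22 listed genes of the wider hnRNP family were measured. In NPCs, 15 of the 21 were higher in slow/slow cells and 1, Pcbp2, was lower, with a median log2 change of 0.56, where 29.3% of all genes were higher and 27.4% lower. The 3 largest were Hnrnpr (1.01), Syncrip (0.98) and Hnrpdl (0.94). In PSA-NCAM+ cells 15 were higher and 1 lower, where 28.6% of all genes were higher and 28.1% lower. In ESCs 6 were higher and 2 lower (all genes 18.5% and 21.9%), and in neurons 4 were higher and 2 lower (all genes 23.4% and 28.4%). In neurons the 3 largest were Hnrnph3 (1.01), Rbmx (-0.83) and Pcbp4 (0.29). In WT cells, 13 of the 21 were lower and 5 higher in NPCs than in ESCs, where 31.6% of all genes were lower and 34.0% higher. The 3 largest were Pcbp4 (1.21), Hnrnpa0 (-0.94) and Ptbp1 (-0.77). In WT neurons against ESCs 9 were higher and 8 lower (all genes 43.4% and 39.4%). Their median log2 change was 0.26 there, against -0.57 for the 10 members. In slow/slow neurons against ESCs 7 were higher and 11 lower (all genes 44.0% and 38.4%).

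Splicing was read as PSI (percent spliced in), the share of transcripts that include an exon or keep an intron. An event was called where the mean PSI of the groups differed by more than 10 points and the posterior probability of that direction was above 0.95. Of the members' events, 20 exons could be tested in each comparison and 44 to 52 introns. All were in 6 genes, Hnrnpa2b1, Hnrnpd, Hnrnph1, Hnrnpl, Hnrnpm and Hnrnpu, but for 1 intron of Hnrnpc. No event of Hnrnpk was listed, and none of the 2 exons of Hnrnpa1 or the 3 of Hnrnpf passed the quality filter in every sample of a comparison.

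The hnRNP events called were few in number and are given beside the share of all events. In ESCs, 0 of 20 exons and 0 of 48 introns were called between genotypes, where 0.809% of all exons and 0.0449% of all introns were called. Calls made with limma, at an FDR under 0.05 and the same 10 points, were also 0 for the members in each count of 0 given here. In NPCs, 3 of 20 exons and 2 of 48 introns were called (2.93% of all exons, 0.295% of all introns). In PSA-NCAM+ cells 1 of 20 exons and 0 of 49 introns were called (0.966% and 0.0775%), and in neurons 1 of 20 exons and 0 of 49 introns (3.55% and 0.236%). The median absolute difference of the members' events in NPCs was 1.23 points for exons and 0.11 for introns.

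Both alternative coding exons of Hnrnpd differed in NPCs, in opposite directions. The 57-nt exon stood at 36.7, 38.7 and 36.0% in WT NPCs and at 63.6, 59.9 and 67.0% in slow/slow NPCs, a difference of 26.4 points. The 147-nt exon stood at 77.3, 75.7 and 78.1% in WT and at 63.6, 64.3 and 65.2% in slow/slow NPCs, a difference of -12.6 points. Neither pair of groups overlapped, and limma gave an FDR of 0.00275 for the first and 0.00105 for the second exon. At least 908 corrected reads stood behind each PSI of the 57-nt exon in these groups and 2275 behind each of the 147-nt exon.

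Along WT differentiation the 57-nt exon of Hnrnpd went from 58.6% ± 0.716 in ESCs to 37.1% ± 1.41 in NPCs and 76.0% ± 0.777 in neurons (SD, n = 3). The difference between WT neurons and ESCs, 17.4 points, was called (1 of 20 exons, where 5.32% of all exons were called). In slow/slow cells the means were 67.2% in ESCs, 63.5% in NPCs and 67.8% in neurons, all within 5 points of each other. Slow/slow neurons were 8.19 points below WT neurons, under the 10 points needed for a call. In PSA-NCAM+ cells the slow/slow samples, at 58.4, 68.5 and 69.1%, were 10.3 points above WT samples at 58.3, 55.2 and 51.6%. That call was lost without WT PSA-NCAM+ replicate 3 (8.60 points), slow/slow replicate 2 (8.75) or slow/slow replicate 3 (8.42), and limma did not make it (FDR 0.35, and 0.148 with the replicate block).

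The 73-nt exon of Hnrnpa2b1, in the 3′ UTR of the annotated transcripts, stood at 49.7, 45.9 and 50.3% in WT NPCs and at 24.7, 26.7 and 26.8% in slow/slow NPCs, a difference of -22.6 points. In neurons the order was the other way round. WT neurons stood at 41.2, 38.2 and 39.3% and slow/slow neurons at 72.2, 71.7 and 73.2%, a difference of 32.8 points. Neither pair overlapped, with a limma FDR of 0.00097 in NPCs and 4.67e-05 in neurons.

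Within slow/slow cells the 73-nt exon was 44.0 points higher in neurons than in ESCs (28.3% ± 1.67). In WT cells the same step was 7.04 points and was not called. In PSA-NCAM+ cells both replicates numbered 1 stood above the others of their genotype, at 52.0% in WT and 39.3% in slow/slow cells, against 26.9 to 34.7% in the other 4 samples. The groups overlapped there, and the difference of -8.22 points was not called.

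The 120-nt coding exon of Hnrnpa2b1 had smaller differences, with the sign of the 73-nt exon in NPCs and neurons but not in ESCs (1.83 points) or PSA-NCAM+ cells (1.73 points), where it was not called. It stood at 86.8, 88.3 and 88.8% in WT NPCs and at 79.0, 79.4 and 78.2% in slow/slow NPCs. In neurons it stood at 85.2, 83.6 and 83.8% in WT and at 92.6, 93.6 and 93.5% in slow/slow cells. The groups did not overlap, but both differences, -9.06 and 9.05 points, were under 10 points. Slow/slow neurons were 11.1 points above slow/slow ESCs, which was called, so that 2 of 20 exons were called in that comparison (3.89% of all exons) and 0 of 52 introns (0.547% of all introns).

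The 36-nt exon of Hnrnpa2b1, which separates the A2 and B1 proteins, was looked at after its values were seen, as a comparison within the gene. Its mean PSI was between 5.34% and 11.4% in all 8 groups, and genotypes differed by at most 2.30 points at any stage. The 15-nt microexon of Hnrnpm, also picked out after its values were seen, was the member exon with the largest difference that was not called. It was 10.6 points lower in slow/slow neurons than in slow/slow ESCs, with a posterior probability of 0.884 and as few as 59 reads in a sample.

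Both introns called in NPCs were kept more often in slow/slow cells. The 117-nt Hnrnpm intron stood at 39.0, 38.4 and 35.8% in WT and at 51.1, 51.6 and 55.6% in slow/slow NPCs, a difference of 15.0 points (limma FDR 0.00313). The 111-nt Hnrnpl intron stood at 14.8, 12.2 and 11.5% in WT and at 24.3, 22.8 and 22.7% in slow/slow NPCs, a difference of 10.5 points (limma FDR 0.00164). Neither pair of groups overlapped. The Hnrnpl difference was close to the limit of 10 points, at 9.82 points without WT NPC replicate 3 and 9.97 without slow/slow NPC replicate 1.

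The Hnrnpl intron had a like difference in ESCs, at 19.8, 20.7 and 19.6% in WT and 29.6, 29.6 and 29.5% in slow/slow cells. These 9.55 points missed the call, while limma, which tests odds, gave an FDR of 3.91e-05. In neurons the order was 25.5% ± 1.73 in WT and 22.2% ± 1.23 in slow/slow cells (not called). The Hnrnpm intron was kept in 40.9% ± 0.906 of transcripts in WT ESCs and 52.3% ± 2.43 in WT neurons. That difference of 11.4 points was called, 1 of 44 introns, where 0.87% of all introns were called.

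Whether the genotype difference changed between NPCs and neurons was tested for these events with limma on the log2 odds of inclusion over the 18 ESC, NPC and neuron samples. This test was added after the values were seen, and the 6 events had been picked by their calls in the same samples, so their number is no support of its own. It was past an FDR of 0.05 for all 6, where 8.15% of all exons and 2.67% of all introns were. Of the 2 further events named, the 36-nt Hnrnpa2b1 exon was also past it (-0.50, FDR 0.00636) and the 15-nt Hnrnpm microexon was not (-0.17, FDR 0.806). The 73-nt Hnrnpa2b1 exon had the largest value of these 8, 3.43 on the log2 odds scale (FDR 1.08e-10), and the 120-nt exon had 2.34. The 147-nt Hnrnpd exon had 1.26 and the 57-nt exon -2.14. The introns had -1.30 (Hnrnpl) and -0.67 (Hnrnpm). For all 6 called events the sign was opposite to that of the difference in NPCs. The NPC difference is subtracted in this test, and calls in NPCs were among those that picked the events. The part of plating density and cell makeup in these changes was not tested.

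**Figure D4:**
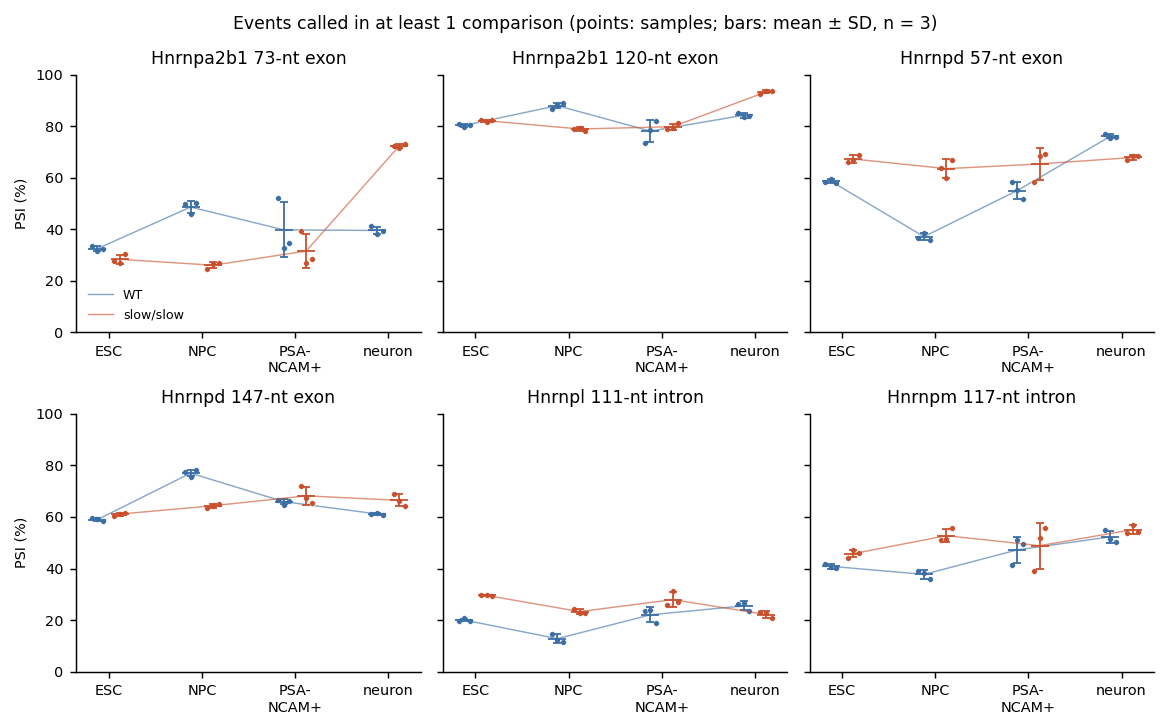
PSI in percent (vertical axis, 0 to 100) by stage (horizontal axis) for the 6 hnRNP events called in at least 1 comparison, in WT (blue) and slow/slow (red) cells. Points are samples, bars the mean ± SD of 3 replicates, and lines join the means. The 73-nt Hnrnpa2b1 exon is lower in slow/slow NPCs and higher in slow/slow neurons, and the 57-nt Hnrnpd exon dips in WT NPCs (37.1%).

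Some of these counts can include reads of other genes. Besides Hnrnpa1, the share of 50-base stretches found in other annotated genes was 36.8% for Hnrnpf, 21.6% for Hnrnpm, which shares annotated exons with March2, 20.8% for Hnrnpk and 8.78% for Hnrnpc. It was at most 3.18% for Hnrnpl, Hnrnpa2b1, Hnrnpd, Hnrnph1 and Hnrnpu. Hnrnpd, Hnrnpf, Hnrnpk, Hnrnpl and Hnrnpu overlap annotated genes on the other strand, and Mir7-1 lies inside Hnrnpk. The library kit keeps the strand, but whether counting used it is not given in the sources used here, so reads of these genes and of their antisense partners may be mixed.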

How the data were processed

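Poly(A)+ RNA of 24 samples (4 stages, 2 genotypes, 3 replicates) had been sequenced from stranded libraries, mapped to mm9 and processed with vast-tools version 1 by the authors. The values the authors deposited were unnormalized gene counts in each sample, RPKM as means over the replicates of a group, and PSI as a percent per event and sample with corrected inclusion and exclusion reads. The deposited columns of log2 fold changes and FDR values hold the authors' own edgeR comparisons of genotypes and were not used. The submitters' processing notes also name bcl2fastq 2.17.1.14 and edgeR.

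Counts were tested with edgeR 4.0.16 in R 4.3.3 (filterByExpr by group, TMM, glmQLFit and glmQLFTest, 1 model of 8 groups over all 24 samples, 16 residual degrees of freedom, common biological coefficient of variation 0.164). P-values were adjusted by Benjamini-Hochberg over the 16627 genes tested. Library totals were 32974432 to 104466886. For PSI, exon and intron events were kept where every sample of a comparison passed the vast-tools quality scores. Introns needed at least 15 reads and a balance p of at least 0.05. Microexons were kept on the coverage score alone, while the study's methods also required a balance score for them. Beta posteriors of the reads of each replicate were pooled per group. That posterior is built from reads, so limma 3.58.1 on the log2 odds (0.5 added to the reads) was run beside it. Scripts were tested on simulated data. DESeq2 1.42.0, other scalings, no filter on low counts, only the groups compared, a replicate block, stricter splicing limits and each replicate left out were tried as alternatives; leaving out both PSA-NCAM+ replicates numbered 1 and the test of splicing between stages were added after the data were seen.

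Same-numbered samples of the 2 genotypes deviated together in PSA-NCAM+ cells (correlations of 0.40 to 0.54) and in no other comparison (-0.08 to 0.07). Each deviation was taken from a mean of 3 samples that includes replicate 1, which stood apart in both PSA-NCAM+ groups. The correlations therefore cannot show whether the replicates numbered 2 and 3 are pairs. The study's methods give 3 independent differentiation experiments for ESCs, NPCs and neurons; for PSA-NCAM+ cells no source used here says so, and p-values there measure only the spread between these samples, which may be technical. All 10 members and every member event called were named, with the 5 genes most like the members and the 3 largest called changes of the wider family. The members and lists were chosen with earlier results of these data known. Gene coordinates and sequences are from GENCODE M21 on GRCm38, matched by symbol for all 10 members. Splicing coordinates were deposited in mm9, and coordinates were not converted; exons and introns were matched within their gene by length and order. No 2 libraries held identical values.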

Additional observations from a re-analysis of the deposited data

Results flagged for a closer look

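The genotype difference in mRNA level changed between ESCs and NPCs, by the edgeR interaction test, for 5 hnRNP genes, each being larger in NPCs. Of all genes, 13.6% were larger and 11.0% smaller. The change was 0.94 on the log2 scale for Hnrnpd, 0.79 for Hnrnpm, 0.63 for Hnrnpu, 0.51 for Hnrnpa2b1 and 0.42 for Hnrnph1. The Hnrnpm and Hnrnph1 calls were lost when certain single libraries were left out, which gave 3 to 5 genes called. The part of plating density and of cell makeup, which differ between the same groups, was not tested.

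Between ESCs and neurons the genotype difference grew by 0.91 for Hnrnpa1 and shrank for Hnrnph1 (-0.36). Of all genes, 20.5% were larger and 21.6% smaller. The Hnrnph1 call was lost under upper-quartile scaling and without certain single libraries. Hnrnpa1 lies on chromosome 15, whose median gene was 0.60 lower on the log2 scale in slow/slow ESCs (-0.60) and near WT in slow/slow neurons (-0.07). The part of this in the Hnrnpa1 value was not tested.

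The genotype difference in inclusion changed between NPCs and neurons, by limma on log2 odds, for the 6 hnRNP events called in at least 1 comparison. These had been picked by those calls in the same samples, and 8.15% of all exons and 2.67% of all introns were past the threshold. The change was 3.43 for the 73-nt exon of Hnrnpa2b1 and 2.34 for its 120-nt exon, 1.26 for the 147-nt exon of Hnrnpd and -2.14 for its 57-nt exon. It was -1.30 for the 111-nt Hnrnpl intron and -0.67 for the 117-nt Hnrnpm intron. Of the 2 further events named in the report, which were called in no comparison, it was also past the threshold for the 36-nt Hnrnpa2b1 exon (-0.50, FDR 0.00636) and not for the 15-nt Hnrnpm microexon (-0.17, FDR 0.806). The part of plating density and of cell makeup in these changes was not tested. No group has more than 3 replicates, so no sample was examined as an outlier within its group.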

How the results depend on the processing

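With 3 replicates, single calls near the threshold depended on the model. Of 1936 single values recomputed, 1765 kept direction and side of the threshold, 94 kept direction but lost the call, 44 gained one and 33 changed sign; none of the 33 was called in either setting. In each case the cause was not tested.

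With only the groups compared in the model, the hnRNP genes called went from 2 to 7 in ESCs, 9 to 3 in PSA-NCAM+ cells, 4 to 10 in neurons, 8 to 5 for WT PSA-NCAM+ cells against ESCs, 1 to 6 for slow/slow NPCs against ESCs, and 5 to 8 for the change of the genotype difference from ESCs to NPCs. The share of all genes called higher moved too: from 18.5% to 27.3% in ESCs, 28.6% to 11.0% in PSA-NCAM+ cells and 23.4% to 36.1% in neurons. For the change to NPCs it went from 13.6% to 21.1%. Shares called higher and lower became 34.5% and 29.8% for WT PSA-NCAM+ cells against ESCs, and 38.1% and 35.1% for slow/slow NPCs. For slow/slow NPCs against ESCs, DESeq2 size factors, upper-quartile scaling and the DESeq2 Wald test gave 2. They were lower but for 1 under upper-quartile scaling. Of all genes, 30.8%, 25.6% and 31.4% were called lower in these 3 settings, and 36.1% higher under upper-quartile scaling. Upper-quartile scaling gave 1 in place of 2 for the change from ESCs to neurons, where 25.7% of all genes were larger and 14.9% smaller. It moved the median of all genes by -0.19 in WT neurons against ESCs and by 0.14 between genotypes in neurons. With the replicate block, 4 genes were called in ESCs, 8 for the change from ESCs to NPCs and 6 in neurons. The number of all 16627 genes called higher rose with the block too, from 3071 to 3666 in ESCs and from 3898 to 4444 in neurons. For the change to NPCs it went from 2262 to 2988. Same-numbered samples deviated together only in PSA-NCAM+ cells, where replicates numbered 1 of both genotypes stood apart, and that does not show that the samples are pairs. The block moved no other count of genes by over 1.5 times.

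Leaving out 1 replicate gave 5 to 8 genes for WT PSA-NCAM+ cells against ESCs, 1 to 2 for slow/slow NPCs, 2 to 5 for slow/slow PSA-NCAM+ cells, 5 to 6 for slow/slow neurons, 3 to 5 for the change to NPCs and 1 to 2 for the change to neurons. Over the same fits, all genes called higher and lower were 35.2 to 36.8% and 31.8 to 33.7% for WT PSA-NCAM+ cells. They were 31.3 to 32.1% and 25.1 to 26.7% for slow/slow NPCs, and 36.8 to 38.9% and 32.0 to 35.2% for slow/slow PSA-NCAM+ cells. For slow/slow neurons they were 42.2 to 42.8% and 37.0 to 37.8%. For the change to NPCs 11.0 to 12.1% were larger, and for that to neurons 18.6 to 19.6% larger and 19.1 to 20.6% smaller. For splicing it gave 1 to 2 introns in NPCs and 0 to 1 exons in PSA-NCAM+ cells. A limit of 15 points left 1 of 2 introns in NPCs, 0 of 1 exon in PSA-NCAM+ cells, 0 of 1 intron in WT neurons against ESCs and 1 of 2 exons in slow/slow neurons against ESCs. For the exon in PSA-NCAM+ cells limma gave 0, with and without the replicate block.

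The sign changes were small. Upper-quartile scaling gave 0.069 for Hnrnpa1 in WT NPCs, 0.030 for Hnrnpk in WT PSA-NCAM+ cells, -0.12 for Hnrnpk in WT neurons, 0.036 for Hnrnpa2b1 in slow/slow NPCs and -0.020 for Hnrnpk in slow/slow neurons, all against ESCs, and 0.10 for Hnrnpk and 0.019 for Hnrnpm in the change to neurons. With only the groups compared, values were 0.0011 for Hnrnpf between genotypes in ESCs, 0.0022 for Hnrnpa1 in WT NPCs, 7.79e-05 for Hnrnpk in WT PSA-NCAM+ cells, -0.026 for Hnrnpk in slow/slow neurons and -0.0021 for Hnrnpa1 in the change to NPCs. With no filter, Hnrnpa1 in WT NPCs was 0.0018. DESeq2 size factors and the DESeq2 Wald test gave 0.0046 for Hnrnpk in WT PSA-NCAM+ cells. Without 1 replicate, Hnrnpa1 was -0.012 to 0.095 between genotypes in ESCs and -0.069 to 0.038 in WT NPCs, and Hnrnpk -0.16 to 0.12 in WT PSA-NCAM+ cells and -0.029 to 0.053 in slow/slow neurons. Against slow/slow ESCs, slow/slow PSA-NCAM+ values ran -0.047 to 0.25 for Hnrnpa2b1, -0.37 to 0.070 for Hnrnpm and -0.26 to 0.043 for Hnrnpu. Hnrnpk ran -0.10 to 0.00030 in the change to neurons. PSI differences in PSA-NCAM+ cells ran -0.55 to 3.775 points for the 120-nt Hnrnpa2b1 exon and -1.88 to 6.625 for the 117-nt Hnrnpm intron, and the former was -0.175 without both replicates numbered 1.

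Over all features, 9424 genes were called between genotypes in PSA-NCAM+ cells and 3700 with only those samples, and 4091 and 7542 for the change to NPCs. Exons called fell with a limit of 15 points from 163 to 80 in ESCs, 665 to 405 in NPCs, 235 to 136 in PSA-NCAM+ cells and 863 to 508 in neurons, and introns from 238 to 126, 65 to 34 and 203 to 105 at the last 3 stages, 620 to 352 in WT and 372 to 212 in slow/slow neurons against ESCs. With limma, ESCs gave 65 exons (69 with the block) and 6 of 32 introns, and PSA-NCAM+ cells 2 exons (111 with the block) and 0 introns. The block gave 359 introns in NPCs, 328 in neurons and 468 of 744 exons in slow/slow neurons against ESCs. PSA-NCAM+ cells gave 488 exons and 137 introns without slow/slow replicate 1, and 550 and 148 without both replicates numbered 1. ESCs gave 50 introns without slow/slow replicate 3.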
